A study of Homo sapiens with 12 samples.

Results

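Doxycycline (Dox) induction of the Y537S estrogen receptor alpha (ER) was followed by ATAC-seq, in which a transposase marks open chromatin. MDA-MB-453, an established breast cancer cell line of luminal apocrine type, had been engineered to make the mutant receptor from an ectopic, Dox-inducible gene. Of the 12 libraries in the series, 4 came from this line, with 1 library each for cells left untreated, given 1 nM estradiol (E2), given 2 ug/mL Dox, or given both agents, for 2 days (the labels print the Dox unit as ug/mi). All 4 groups carry the inducible receptor gene, and the serum-containing medium was shared by all. No cells with Dox and without a receptor gene were analysed here, so the induced receptor and Dox itself cannot be told apart. The labels do not say whether the line is 1 clone. Peaks of the 4 lists on chromosomes 1 to 22 and X that overlapped by at least 1 bp were joined into 142363 regions. A region was gained when the Dox and Dox+E2 libraries each held a peak there and the untreated and E2 libraries held none, and lost in the reverse case. There were 30652 gained regions (21.5% of all), 11543 lost regions (8.11%) and 40566 regions with a peak in all 4 libraries.

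ER is a hormone-regulated transcription factor that binds DNA as a dimer at estrogen response elements (ERE), palindromes of AGGTCA-like hexamers. Many of its binding sites in breast cancer cells are enhancers far from genes, where pioneer factors such as FOXA1 keep chromatin accessible. Y537S lies in the ligand-binding domain, arises in tumours under endocrine therapy, and holds the receptor in an active shape without hormone.

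Sequence was at hand for promoters, as windows of 300 bases (250 before to 50 after a gene start, RefSeq, GRCh38.p14). Of 22131 windows of protein-coding genes, 189 (0.854%) overlapped a gained region and 188 (0.849%) a lost one. The core of the ERE palindrome, GGTCA and TGACC with 3 unspecified bases between them, was found with no mismatch in 8 of all windows, none of them gained or lost. With 1 mismatch it was found in 8 of the 189 gained windows. These sites are shown because they are the closest matches to the receptor's own element in promoters that gained a peak; each is written 5′ to 3′ on the gene's strand, with the 13 matched bases in capitals.
F2: gagatgggGGTGACAGTGACCttttttgt
OXT: gccaacgcGGTGACCTTGACCccggccca
CASKIN2: cccagcccGGTCACTCTGAGCctcttccc
LRIG1: tctcgcctGGGCACTGTGACCtgctcctg
RGS12: ctcctcctGGTCACGCTGGCCttccggta
TEX35: aaaggggtGGTCACCCTGCCCtcaccttg
C5AR2: cagggccaGGTCACTCTGACAttgtgggg
GCKR: ggaagcagAGTCATTGTGACCagaggggt
The F2 site (prothrombin) is at chr11:46719009-46719021 on the plus strand, and that of OXT, which encodes oxytocin, at chr20:3071455-3071467 on the plus strand. The CASKIN2 site is at chr17:75509978-75509990 on the minus strand. LRIG1 encodes a membrane protein that restrains receptor tyrosine kinases, and its site is at chr3:66405958-66405970 on the minus strand. All 8 sites lie inside the gained region and begin before the gene start, which the GCKR site spans. A site inside a region need not lie at its summit: the strongest CASKIN2 summit is 1.113 kb after the gene start. The summit pileup (fragments stacked at the peak's highest point) over F2 was 30 with Dox and 25 with Dox+E2, and over OXT 7 and 10, with no peak in either library without Dox.

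The 250 bases before 3 other gene starts with gained peaks follow. These promoters, like others named below outside the ranked regions, were picked after their values were seen. OTOF (otoferlin, a synaptic calcium sensor) has the strongest gained promoter region that holds AGGTCA, CYP19A1 encodes aromatase, the enzyme that makes estrogens, and CAPN2, a calpain protease gene, has the strongest gained region within 1 kb of a gene start. Capitals mark AGGTCA or its reverse complement TGACCT in the first 2 and TGANTCA, the AP-1 motif, in CAPN2.
OTOF: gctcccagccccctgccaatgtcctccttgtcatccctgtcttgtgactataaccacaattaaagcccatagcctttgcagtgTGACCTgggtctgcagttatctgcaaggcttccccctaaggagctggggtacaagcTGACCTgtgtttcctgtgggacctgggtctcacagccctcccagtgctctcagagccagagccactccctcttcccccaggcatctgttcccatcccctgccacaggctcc
CYP19A1: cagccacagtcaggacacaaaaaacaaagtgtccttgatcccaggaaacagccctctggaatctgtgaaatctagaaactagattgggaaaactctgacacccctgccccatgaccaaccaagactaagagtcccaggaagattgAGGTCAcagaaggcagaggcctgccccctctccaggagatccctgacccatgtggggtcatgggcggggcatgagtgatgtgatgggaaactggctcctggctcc
CAPN2: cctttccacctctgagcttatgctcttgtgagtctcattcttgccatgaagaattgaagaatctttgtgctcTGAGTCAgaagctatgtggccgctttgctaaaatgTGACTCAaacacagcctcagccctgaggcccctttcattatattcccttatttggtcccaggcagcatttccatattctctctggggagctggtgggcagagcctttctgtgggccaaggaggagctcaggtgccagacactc
The OTOF stretch is chr2:26478125-26478374 on the minus strand, with pileups of 39 with Dox and 44 with Dox+E2. The CYP19A1 stretch is chr15:51318498-51318747 on the minus strand, with 27 and 27. The CAPN2 stretch is chr1:223701347-223701596 on the plus strand, with 66 and 65. These pileups are at region summits, which can lie outside the printed bases. The strongest CAPN2 summit does, 0.489 kb before the gene start. By the rule, none of these regions had a peak without Dox.

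Depth is seen only through the peak lists. Peak summits numbered 106291 in untreated cells and 118631 under E2, against 132496 under Dox and 133963 under Dox+E2, and the background pileup recovered from the authors' fold values was 0.304 to 0.364. In every library the weakest peak had 4 fragments at its summit, so a site without a peak may still hold fragments and was not measured as closed. All 10 luminal epithelial markers, such as EPCAM, GATA3 and FOXA1, had a peak within 1 kb of a gene start without Dox and 9 of 10 with Dox, with summed pileups of 315 and 332 without Dox and 234 and 232 with it; the part of this lower level in the lost regions was not tested. KRT8, the marker without a peak under Dox, was listed at only 5 untreated and 8 with E2. All 23 housekeeping genes had a peak in each library, with summed pileups of 847 and 982 without Dox and 850 and 898 with it. Of 10 leukocyte markers 1 had a peak without Dox and 2 had one with Dox (summed pileups 6 and 4 without Dox, 22 and 28 with it). LYZ had 14 with Dox and 15 with Dox+E2, and CD79A 8 and 13, with no peak without Dox. CD3E had a peak only without Dox, PTPRC, CD3D and CD14 had none, and the part of other cells in the results was not tested. The basal markers KRT5, KRT14, KRT17 and TP63 had none in any library. Of 10 fibroblast and endothelial markers, 4 had a peak in untreated cells, 3 under E2, 3 under Dox and 2 under Dox+E2. COL1A1 had pileups of 30 and 38 without Dox, and 30 and 28 after its addition. PDGFRA had 12 and 11 without Dox, and 10 and 15 after its addition. The source of these peaks was not tested. In such bulk samples more cells with an open site and a site more open in each cell cannot be told apart.

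The count of gained regions was the highest of the 6 ways to label a pair of the 4 libraries as Dox (one-sided p = 0.167 by an exact permutation test, which cannot go lower with 4 libraries). For lost regions p was 0.333 by the same exact permutation test, since the gained count itself is 1 of the 6 arrangements. With every list limited to its 106291 strongest peaks by −log10 p, 21984 of 117990 regions were gained (18.6%) and 14525 lost (12.3%), so gained regions were 1.51 times as many as lost ones, against 2.66 times with all peaks. Leaving out 1 library loosens the rule, so counts rise on both sides. With all peaks, lost regions numbered 24468 without the untreated library and 19701 without the E2 library. Gained regions numbered 44999 without the Dox library and 43606 without the Dox+E2 library. Of the regions gained at equal length, 496 (2.26%) had a weaker peak without Dox in the complete lists, whereas 5081 of the 14525 lost had a weaker peak with Dox. Trimming favours this difference, since it takes no peak from the untreated list and the most from the Dox and Dox+E2 lists.

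The Dox and Dox+E2 libraries shared most of their new peaks: against the 30652 gained regions, 11475 had a peak with Dox alone among the 4 libraries and 12540 with Dox+E2 alone. Each of these comparisons between single libraries has no replicate check.

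Gains reached into the strongest peaks and losses did not. Among the 1000 strongest peaks of the Dox library 85 lay in gained regions, and among the next 4000 peaks 678 did. With Dox+E2 the counts were 79 and 654. Among the 5000 strongest peaks of the untreated library 0 lay in lost regions, and the E2 library likewise had 0 of 5000. In the untreated library 0.46% of ranks 5001 to 20000 were lost and 18.1% of ranks 50001 to 100000. In the Dox library the gained share was 25.7% of ranks 5001 to 20000 and 30.4% of ranks 50001 to 100000. The median pileup of gained regions was 10 in both Dox libraries, and that of lost regions was 8 in both others, against 14 to 20 in regions open in all 4. A pileup of 20 or more in both Dox libraries was reached by 4067 gained regions, and of 20 or more in both other libraries by 103 lost regions. The counts were 4164 and 390 with lists of equal length. Gained regions had a median width of 405 bp, and lost regions 305 bp.

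**Figure D1:**
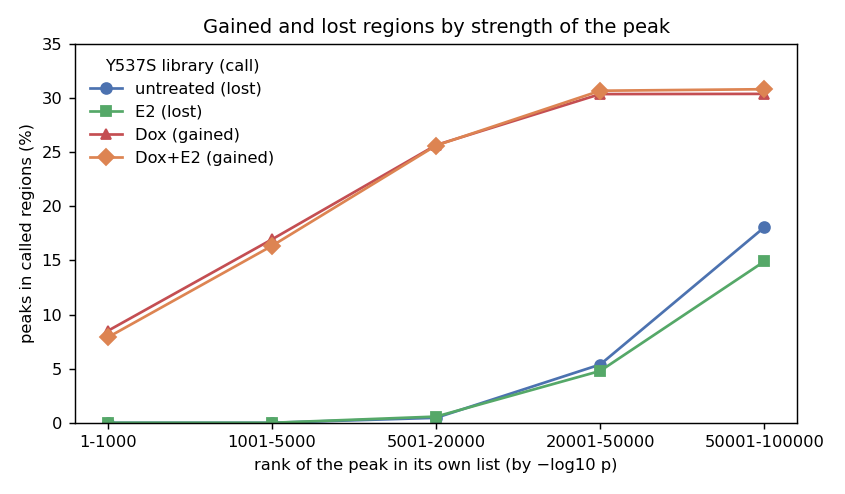
Share of peaks that lay in gained regions (Dox and Dox+E2 libraries) or lost regions (untreated and E2 libraries), by the rank of the peak in its own list. Points are 1 library each; the Dox lines start at 8.5% and 7.9% among the 1000 strongest peaks and reach 30.4% and 30.8%, while the lines without Dox start at 0 and reach 18.1% and 14.9%.

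Away from gene starts gained regions outnumbered lost ones. Near them the counts were close with all peaks, when gene ends stood in for starts that were not listed. Positions were taken from the strongest summit of a region to the nearest start of a protein-coding gene, or to either end for genes whose start is not in the table used. Within 1 kb lay 716 gained regions (2.34%, exact 95% interval 2.17 to 2.51%), 662 lost regions (5.74%, 5.32 to 6.18%) and 11348 regions open in all 4 (28.0%, 27.5 to 28.4%). Seen the other way, 4.16% of the 17222 regions within 1 kb were gained and 3.84% lost, against 23.9% and 8.70% of the 125141 regions farther away. At equal list length the balance near gene starts turned to losses, with 465 gained and 933 lost, whereas farther away 21519 were gained and 13592 lost. It also turned to losses with all peaks when only listed starts were used, an alternative chosen after seeing the data. Within 1 kb then lay 1.46% of the 30652 gained and 4.63% of the 11543 lost regions. The middle of the distance range held the largest share of both: 50.5% of gained and 45.5% of lost regions lay 10 to 100 kb from a gene start, and the median distance was 36.6 kb for gained, 41.7 kb for lost and 11.9 kb for regions open in all 4. These intervals cover counting error over regions, which are not replicates of the treatment.

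**Figure D2:**
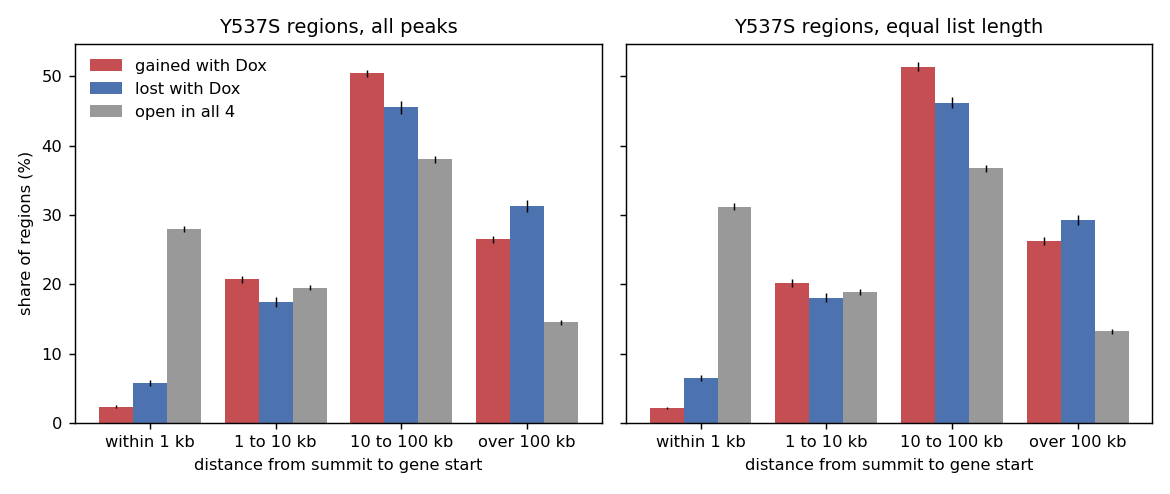
Share of gained, lost and always-open regions by distance to the nearest gene start, with all peaks (left) and at equal list length (right); bars start at 0 and error bars are exact 95% intervals over regions. Within 1 kb the bars for gained regions (2.34% and 2.12%) and lost regions (5.74% and 6.42%) are well below those for regions open in all 4 (28.0% and 31.2%).

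The same shift was seen in whole lists. Of all peak summits, 32.4% lay within 1 kb of a gene start untreated and 30.8% with E2, against 23.9% with Dox and 23.9% with Dox+E2. Both Dox libraries were thus lower than both others. At equal list length the values were 32.4%, 32.7%, 26.7% and 26.9% in the same order. The difference was -7.7 percentage points with all peaks and -5.78 at equal length (exact permutation test, two-sided, p = 0.333 for each, the smallest that 4 libraries allow).

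Changes were spread over all chromosomes. With all peaks the gained share ran from 17.2% of regions on chromosome 19 to 26.5% on chromosome 22, and the lost share from 4.91% on chromosome 22 to 9.97% on chromosome 4. At equal list length the X chromosome alone had more lost than gained regions (17.8% against 13.4%).

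The strongest gained regions away from gene starts lay inside TFRC, the transferrin receptor gene, inside WNT9A, a Wnt ligand gene, and inside CASKIN2, a scaffold protein gene. The TFRC region had 149 fragments at its summit with Dox and 136 with Dox+E2. The CASKIN2 region (hg38, chromosome 17, 75507767 to 75510229) had 116 and 133, and it reaches over a CASKIN2 start, so it also counts among the gained promoter windows. HHAT, which attaches palmitate to hedgehog proteins, held a region with 139 and 114. All 10 regions of this kind had no peak in either library without Dox, and their pileups with Dox ran from 90 to 149. Over the same 10 regions the WT ER line had 12 to 52 with Dox and 34 to 58 with Dox+E2, and the K303R ER line 4 to 38 and 12 to 30. The regions were chosen for their height in Y537S and the lists differ in depth, so these values are not compared.

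Gene starts, or gene ends where the start is not listed, with the strongest gained regions belonged to genes of varied function. The CAPN2 region (chromosome 1, 223700398 to 223701615) has its summit 0.489 kb before the gene start. The region of FDXR, the mitochondrial ferredoxin reductase gene, lies 0.332 kb after the start (chromosome 17, 74868086 to 74868866) and had 50 fragments with Dox and 67 with Dox+E2. SERPINA1, which encodes alpha-1 antitrypsin and is a known estrogen target, had 46 and 40 at 0.361 kb before the start. LCNL1, OAZ3 and UCKL1 were also among the 10, with pileups of 42 to 66. All 10 regions of this kind stayed gained at a −log10 q of 10 or more, which follows from their choice by high −log10 q. Among gained promoter windows were also those of NR1I2, which encodes the pregnane X receptor (36 and 27), DHRS9, a retinol dehydrogenase gene (37 and 53), and CYP19A1.

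**Figure D3:**
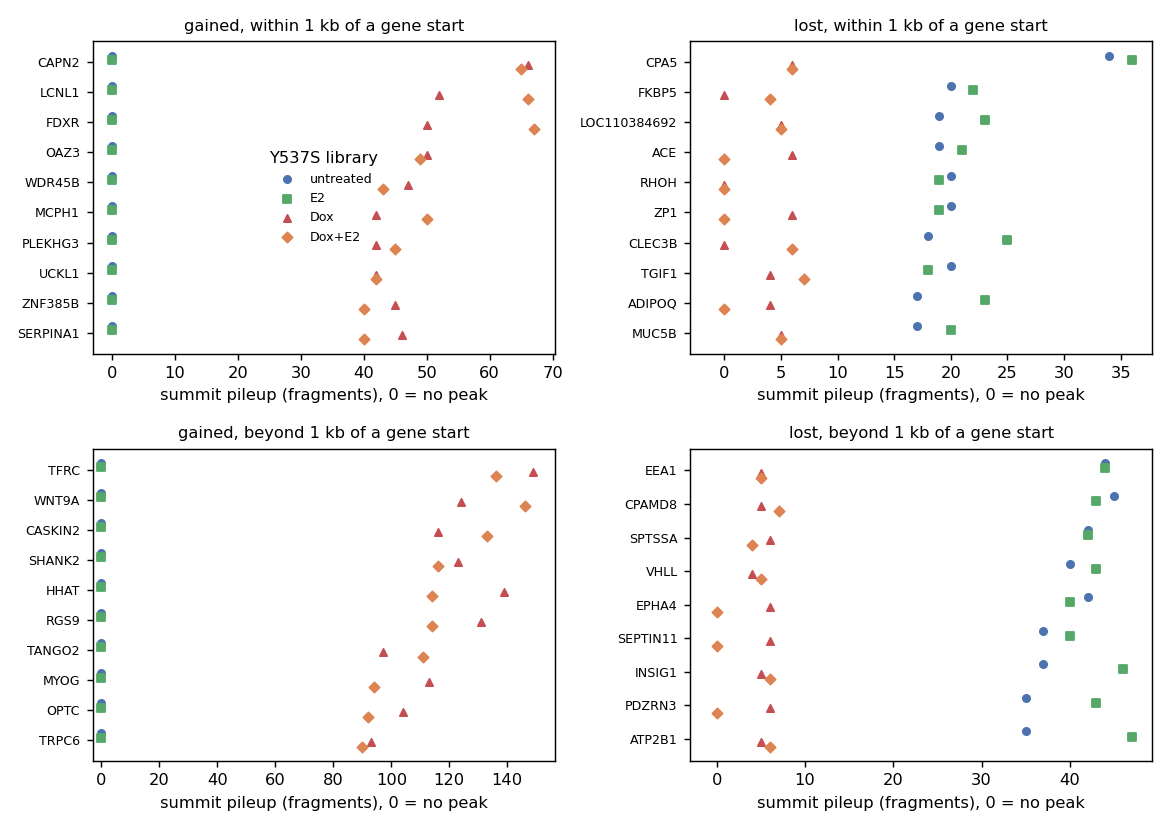
Summit pileup in the 4 Y537S libraries for the 10 strongest gained and 10 strongest lost regions at equal list length, near gene starts (top) and farther away (bottom). Regions are named by the nearest gene start, or by either gene end where the start is not listed. In the top panels WDR45B, MCPH1, PLEKHG3, CPA5, LOC110384692 and MUC5B are such ends, which may not be starts. In the bottom panels 1 lost region is not drawn. A value of 0 means no peak in the complete list. Gained regions stand at 40 to 149 with Dox and at 0 without; lost regions stand at 17 to 47 without Dox and at 0 to 7 with it.

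The strongest losses were weaker, and many were incomplete. FKBP5, a co-chaperone gene induced by steroid hormones, had a region 0.512 kb before its start (chromosome 6, 35728915 to 35729413) with pileups of 20 untreated and 22 with E2, no peak with Dox and 4 with Dox+E2. Such a contrast between the groups is what the rule selects. ACE, the angiotensin-converting enzyme gene, had 19, 21, 6 and 0 in the order untreated, E2, Dox and Dox+E2, and ADIPOQ, the adiponectin gene, 17, 23, 4 and 0. Farther from starts, a region inside CPAMD8, a gene of the complement and alpha-2-macroglobulin family (chromosome 19, 17021620 to 17022694), had 45, 43, 5 and 7, and a region 19.1 kb from the start of INSIG1, a sterol sensor gene, had 37, 46, 5 and 6. Of these 20 regions, chosen at equal list length, 1 counted as lost with all peaks: that at RHOH, a hematopoietic small GTPase gene, with 20 and 19 without Dox and no peak with it.

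With all peaks the strongest lost region lay inside TNR, a tenascin gene (chromosome 1, 175572881 to 175574084), with 34 fragments untreated, 49 with E2 and no peak with Dox. ABCC1, which encodes the drug exporter MRP1, held a region with 32 and 31 (chromosome 16, 16014858 to 16015286). GRIK4, a kainate receptor gene, held one with 30 and 34. Lost promoter windows included CCN2, a YAP target that encodes connective tissue growth factor (11 untreated and 16 with E2), NFIL3, a bZIP repressor gene (9 and 17), and ARHGEF2 (14 and 17). When lists had equal length, 146 promoter windows were over gained and 322 over lost regions (0.66% and 1.45%).

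Gained promoters differed from other promoters in sequence. AGGTCA, the ERE hexamer searched on both strands, was present in 62 of the 189 windows over gained regions (32.8%, exact 95% interval 26.2 to 39.99%). It was present in 10.1% of the 188 over lost regions, 8.94% of the 12129 over regions open in all 4 libraries, 15.3% of the 8856 over no region and 11.9% of all 22131. TGANTCA was found in 17.5% of gained windows (12.3 to 23.6%), against 4.26% of lost, 8.80% of those without a region and 6.15% of all. The ERE core with up to 1 mismatch was found in 4.23% (1.85 to 8.17%) against 1.06% of lost and 0.66% of all windows. AGATAA, the GATA motif, was in 13.2% of gained windows and 13.1% of those without a region. Its shares were 4.26% of lost, 4.00% of always-open and 7.88% of all windows. TGTTTAC, the forkhead motif, was in only 3 gained (1.59%) and 11 lost windows (5.85%), against 2.85% of all. At equal list length it was in 0.685% of gained and 3.73% of lost windows. GGGCGG, the GC box of housekeeping promoters, was in 51 of the 189 gained windows (26.98%), 58.0% of lost and 73.5% of always-open windows. It was in 33.2% of windows without a region and 56.3% of all. CCGGAAG, the ETS motif, was in 5.82% of gained, 4.79% of lost and 20.4% of always-open windows. It was in 3.38% of windows without a region and 12.8% of all. For both motifs gained windows were thus nearer to windows without a region than to always-open ones. GCCNNNGGC (AP-2), TATAAA and CCAAT were in 26.5%, 10.1% and 32.8% of gained windows, close to their shares in all windows (27.4%, 9.46% and 34.6%). Median GC content was 57% in gained, 63.7% in lost and 54.3% in windows without a region. AGGTCA at equal list length was in 34.3% of gained and 8.70% of lost windows. The ERE core and AGGTCA share the bases GGTCA, so a window can count for both, and windows of 1 gene can overlap. A match is a description of the sequence and no evidence of binding, and base composition moves with these groups, so its part in the shares was not tested.

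**Figure D4:**
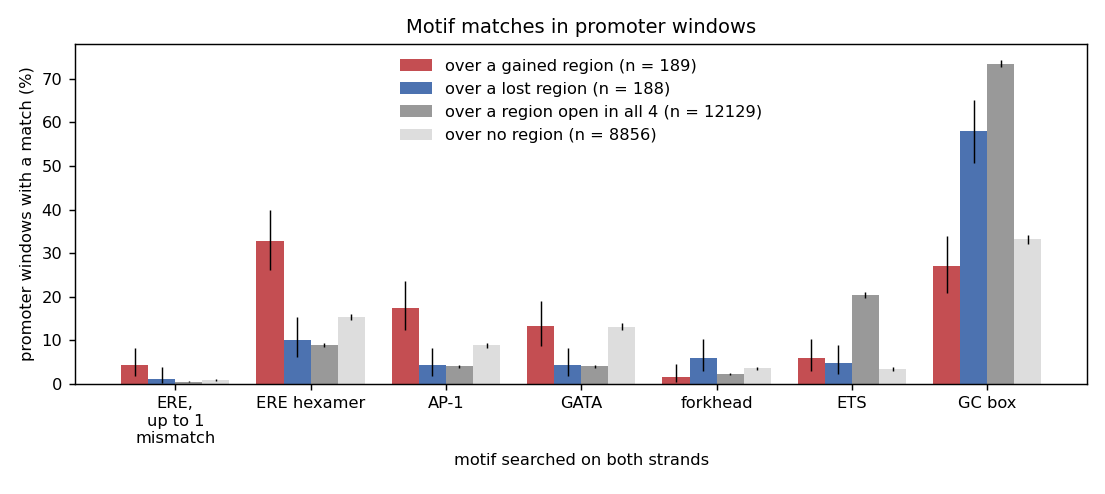
Share of 300-base promoter windows with a match to each motif, for windows over gained, lost, always-open or no regions (all peaks); bars start at 0 and error bars are exact 95% intervals. The ERE hexamer stands at 32.8% in gained windows against 8.94% to 15.3% in the other groups. The GC box is lower in gained (26.98%) than in lost windows (58.0%), and stands at 33.2% in windows over no region.

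Genes of the estrogen response list often had gained regions nearby. Of 50 genes, 45 had a gained region within 50 kb of the gene span, where 71.0% of all protein-coding genes with a region there did, and 30 had a lost one (49.2% of all). In 37 of the 50 gained regions outnumbered lost ones, and in 3 the reverse held. Over all genes with a region these counts were 10942 and 3273 of 19292. With lists of equal length they were 28 and 14 of the 50, and 8383 and 5301 of 19156. Of the 955 regions near these genes 25.3% were gained and 5.34% lost, against 20.8% and 7.49% near all protein-coding genes. At equal list length 39 had a gained region (63.0% of all genes) and 36 a lost one (58.1%), and 21.5% of the regions near them were gained (18.0% near all). The shares differ by a few points, genes with long spans hold more regions, and neighbouring genes share them.

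Single estrogen targets differed widely. RET, a receptor tyrosine kinase gene, had 19 gained and 1 lost region among 46 within 50 kb, and its strongest gained region had 43 fragments with Dox and 38 with Dox+E2 (chromosome 10, 43085610 to 43087522, inside the gene). CA12, a carbonic anhydrase gene, had 17 gained and 0 lost among 42, with 54 and 48 at the strongest (chromosome 15, 63340394 to 63341530, inside the gene). GREB1, an ER coactivator gene, had 10 gained and 2 lost among 27, the strongest with 22 and 23. PGR, the progesterone receptor gene, had 5 gained among 18, the strongest 29.8 kb outside the gene with 31 and 42. NRIP1, which encodes a corepressor that binds ER, had 6 gained and 2 lost among 14 (24 and 29 at the strongest), and TFF1, a trefoil factor gene, had 6 gained and 0 lost among 19 (24 and 18). CTSD (cathepsin D), IL17RB, an interleukin receptor gene, and CELSR2, a cadherin gene, had 12, 11 and 11 gained and 0 lost regions among 39, 31 and 26. Other genes of the list had few within 50 kb: CCND1 (cyclin D1) and XBP1, a secretory transcription factor gene, had 1 gained region each among 18 and 28, with pileups of 6 to 7, and MYC had 3 gained and 2 lost among 16. By nearest gene start CCND1 had 10 gained and 1 lost of 29, and MYC 27 and 11 of 116. At equal list length lost regions outnumbered gained ones within 50 kb of 14 of the 50 genes, and the reverse held for 28. Among the 14 were MYC (4 lost and 1 gained), NRIP1 (4 and 3), CCND1 (1 and 0) and XBP1 (1 and 0). RARA, AGR2, AGR3, TPBG and OLFM1 are the 5 without a gained region, named after their counts were seen.

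Within 1 kb of a start or end, 3.42% of all protein-coding genes had a gained region and 3.39% a lost one. Of the 50 estrogen response genes, SERPINA1, RERG, a Ras-like growth inhibitor gene (14 with Dox and 13 with Dox+E2), HSPB8 (6 and 8) and PRSS23 (4 and 8) had gained regions. FHL2 (5 untreated and 8 with E2) and MYC (7 and 17, near the gene's end) had lost ones.

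Near luminal transcription factor genes the share of gained regions was below that near all genes, while the count of genes with a change was above it. Of the 24 genes 22 had a gained region within 50 kb and 19 a lost one (71.0% and 49.2% of all genes), and at equal list length 17 and 19 did. Of the 479 regions near the 24 genes, 13.6% were gained and 8.14% lost, and at equal list length 10.9% and 13.2%. FOXA1, the pioneer factor gene, kept a peak beside the gene in all 4 libraries (57, 54, 39 and 37 in the order untreated, E2, Dox and Dox+E2) and had 2 gained and 0 lost regions among 18. GATA3 had 1 gained and 1 lost region among 24, both with pileups of 5 to 7, and 0 gained and 3 lost among 24 at equal list length. By nearest gene start GATA3 had 2 gained and 7 lost of 55, and 1 and 10 of 49 at equal list length. RUNX1 had 12 gained and 3 lost among 32, and FOXP1, a forkhead factor gene, 5 gained and 8 lost among 36. ESR1, the gene of the endogenous receptor, had 7 gained and 2 lost among 22, the strongest gained with 15 and 15; the ectopic copy itself was not measured.

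The other lists fell on both sides of the background, which for regions near all genes was 20.8% gained and 7.49% lost with all peaks and 18.0% and 11.5% at equal list length. The 2 measures also differed. A gained region lay within 50 kb of 15 of 17 AP-1 genes, 17 of 20 coregulator genes and 10 of 10 luminal epithelial markers. Of all genes with a region there 71.0% had a gained one, though the shares of regions gained near these 3 lists were not above 20.8%. At equal list length 14, 14 and 9 of these genes had a gained region (63.0% of all genes) and 16, 15 and 10 a lost one (58.1%). Near the androgen and apocrine program 16.4% of 373 regions were gained and 8.58% lost. Near the AP-1 family 16.7% of 330 were gained and 6.67% lost; FOSL2 had 9 gained and 2 lost among 23, and JUNB 0 gained and 5 lost among 29. Near coregulator genes the shares were 19.8% and 5.68%. Near growth factor genes they were 14.2% and 9.46%, with 10 gained and 0 lost among 16 at EGFR and 1 gained and 4 lost among 36 at ERBB4. Cell cycle genes had 13.3% gained and 6.02% lost, and CDK6 had 0 gained and 4 lost among 16. Stress response genes had 14.6% and 4.05%, interferon-stimulated genes 22.7% and 3.24%, basal and mesenchymal genes 19.1% and 7.35%, and housekeeping genes 13.8% and 6.32%. Among the marker lists, luminal epithelial genes had 12.7% and 5.16%, leukocyte genes 22.2% and 11.1%, and fibroblast and endothelial genes 16.2% and 9.09%. With lists of equal length the gained and lost shares were 12.1% and 12.1% near stress response genes, 15.5% and 13.7% near coregulator genes, 13.9% and 15.1% near basal and mesenchymal genes, 10.7% and 13.4% near luminal epithelial genes and 19.3% and 7.02% near leukocyte genes, so the side of the background for losses turned for these lists.

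**Figure D5:**
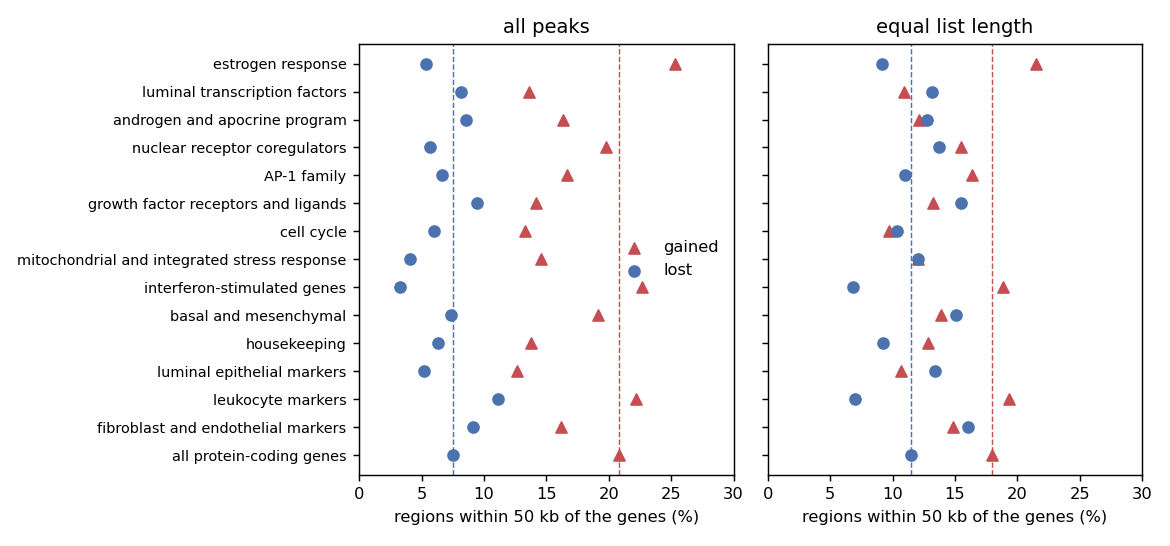
Share of regions within 50 kb of the genes of each list that were gained (triangles) or lost (circles), with all peaks (left) and at equal list length (right); dashed lines mark the shares near all protein-coding genes. The estrogen response list lies right of the dashed line for gained regions in both panels (25.3% against 20.8%, and 21.5% against 18.0%), and the luminal transcription factor list lies left of it (13.6% and 10.9%).

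Some loci held dense groups of changed regions. By nearest gene start at equal list length, SHANK2, a synaptic scaffold gene on chromosome 11, had the most gained regions, 44 of 120 with 1 lost. ZMIZ1, a coactivator gene, had 37 of 102, GABRG3, a GABA receptor subunit gene, 23 of 45, ITPK1, an inositol phosphate kinase gene, 23 of 47, and SDK2, a cell adhesion gene, 23 of 51, with 2 to 8 lost at each. The most lost regions were nearest to SOX11, a neural transcription factor gene, with 24 of 55 lost and 8 gained. TLE1, a Groucho corepressor gene, had 16 of 40 lost and 1 gained, and GLI3, a hedgehog pathway factor gene, 16 of 46 lost and 4 gained. KCNMA1, a potassium channel gene, was on both lists, with 23 gained and 18 lost of 99, and EPAS1, which encodes the hypoxia factor HIF-2alpha, had 12 gained and 17 lost of 48. With all peaks EPAS1 had 14 gained and 9 lost of 53, so its direction turned with list length. These genes were ranked by the counts themselves, and the counts grow with the stretch of genome that a gene start is nearest to.

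The regions gained in Y537S were also looked up in the other lines by position. Of the 29936 gained regions beyond 1 kb of a gene start, 0.825% had a peak in untreated WT cells, 6894 had one with Dox (exact 95% interval 22.6 to 23.5%) and 34.7% had one with Dox+E2 (34.2 to 35.3%). Of the 716 within 1 kb the shares were 1.68%, 22.8% (19.7 to 26.0%) and 30.6% (27.2 to 34.1%). In K303R, 15.7% and 35.1% of those beyond 1 kb and 18.3% and 31.3% of those within 1 kb had a peak with Dox and with Dox+E2. The 21519 regions beyond 1 kb that were gained at equal list length were also looked up. For this each WT and K303R list was cut to 39522 peaks. A peak was then found at 8.68% with Dox and 23.1% with Dox+E2 in WT, and at 3.20% and 6.404% in K303R. For Dox+E2 the order of the lines thus differed from that with all peaks, while for Dox alone WT had the higher share both ways. Each share comes from 1 library of its own depth, and differences between the lines were not tested.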

How the data were processed

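The authors deposited 1 peak list per library on hg38, from 75 bp paired-end ATAC-seq per the labels' protocols. FastQC, Bowtie2, SAMtools, Picard and MACS2 are named in the submitters' processing notes; the sources used here give no versions, settings or transposase offset. The deposited score is 10 times the −log10 q without decimals. The deposited fold (ratio of summit to background), −log10 p and −log10 q are the authors' own per-peak values, used only to describe, rank or filter within 1 list. Folds are whole multiples of 1 step per library (to within 0.000715 in the Y537S lists), from which summit pileups were recovered. Another 76 to 97 peaks per library lay outside chromosomes 1 to 22 and X and were dropped. Peak names of the 4 libraries share 1 run tag and do not name the ER form, which rests on the labels.

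Regions were merged, called and counted in Python 3.11.15 with pandas 2.3.3 and scipy 1.17.1; the counting was tested on simulated data. The labels do not describe separate cultures, so exact permutation p-values speak only of the spread among these 4 libraries. Equal list length keeps 106291 peaks per library by −log10 p (column 8). RefSeq tables of GRCh38.p14 (hg38 and GRCh38 share primary coordinates) gave starts with strand for 15811 of 19970 protein-coding genes; for the other 4159, among them all on chromosome 8, both gene ends were used. All 280 list genes matched, 2 by older symbols. The members, lists, motifs and rules were chosen with earlier results of these data known, so the lists give no independent support; the mismatch search and the strongest lost regions with all peaks were added after values were seen. Named regions are the 10 strongest gained and lost within and beyond 1 kb by the smaller −log10 q at equal list length; named genes are the 10 with most gained or lost regions by nearest start, a fixed set, and the top of each list. Some regions the rules select are given in figures or counts only, and a few genes and the results that need them are not reported here. Sequences beyond promoters need a genome and were not analysed here.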

Additional observations from a re-analysis of the deposited data

How the results depend on the processing

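Gained regions outnumbered lost ones in every setting tried with all 4 libraries: 24546 and 11736 with −log10 q held at 5 or above, 15647 and 8389 at 10 or above, 30895 against 15915 when a peak had to cover 50% of a region, 29488 against 10439 with fixed windows around summits, and 30358 against 11178 when merged over 12 libraries. Leaving out 1 library in turn loosens the rule: gained regions numbered 32024 to 44999, lost regions 15789 to 24468, and genes with a lost region within 50 kb 11692 to 14350. Within 1 kb of a gene start then lay 2.65 to 3.345% of gained, 6.87 to 8.95% of lost and 26.4 to 27.9% of always-open regions. These shares were 2.12%, 6.42% and 31.2% at equal list length, 6.81%, 10.2% and 34.0% within 2500 bp, and 1.46%, 4.63% and 23.3% with starts from the promoter table alone, an alternative chosen after seeing the data. At a −log10 q of 10 or more 6.93% of lost and 39.7% of always-open regions lay within 1 kb, and at 5 or more 30.7% of always-open ones. In each setting the share was lowest for gained and highest for always-open regions. Lost regions lay over 188 promoter windows, and over 322 at equal list length. With a window of 20 kb, 19 estrogen response genes had a lost region in place of 30. All 20 gained regions named by the rule kept their call with all peaks and at both thresholds. Of the 20 lost ones 1 did with all peaks, 10 at 5 or more and 20 at 10 or more. The regions were chosen at equal list length for a high −log10 q. The result at 10 or more follows from that choice and is no support, and the gained calls had little room to change at 5 or more. No paired analysis was possible because the labels give no replicate numbers and each treatment has 1 library. Within each E2 level, the share of summits within 1 kb of a gene start was lower with Dox (32.4% and 23.9% without E2, 30.8% and 23.9% with it). Changes below the listed minimum of 4 stacked fragments were not detectable.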
